A study of Rattus norvegicus with 6 samples.

Results

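The genes described here mark endothelial cells, which line blood vessels, and they were measured in bulk RNA from mammary tumors of rats. The list held 10 genes (Pecam1, Cdh5, Kdr, Flt1, Tek, Tie1, Vwf, Eng, Emcn and Cldn5), and its members were the rows of the deposited count table that carry these symbols. A row was found for 9 of the 10 among 30562 rows, all 9 passed the filter on low counts that kept 14060 rows, and Cldn5 was not analysed here. The study asked how mammary tumors of aged and young rats differ. All rats were female F344 rats that carried a pellet of 50 mg of the progestin medroxyprogesterone acetate (MPA), released over 90 days, and were gavaged once with the carcinogen DMBA at 65 mg/kg. The older rats were obtained at 19 to 21 months and dosed at 21 to 23 months of age, and the younger rats were bought at 6 to 8 weeks and dosed at 4 months. Tumors 102, 107 and 116 came from older rats and tumors 157, 158 and 167 from younger rats, with 1 library per tumor. The younger tumors were all those that formed, whereas the older ones were those with enough tissue, and no group without DMBA or MPA was measured. The study counts the tumors as coming from 3 older and 3 younger rats, so each tumor stands for 1 animal.

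Endothelial cells form the inner wall of vessels and recruit new branches when a tissue, such as a growing tumor, needs blood. Vascular endothelial growth factor (VEGF) made by neighboring cells acts on receptors on the endothelial surface, and angiopoietins act on the TIE receptors, which govern how stable a vessel is. Adhesion proteins such as VE-cadherin seal the junctions between the cells. In bulk tissue, fewer endothelial cells and less RNA per endothelial cell cannot be told apart.

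Library totals ran from 3508571 to 6525830 counts, so that 3 counts corresponded to between 0.516 and 0.988 CPM (counts scaled to library size, with TMM factors). The members together took between 0.0166% and 0.0551% of all counts of a tumor. The thinnest value was Tie1 in tumor 167 with 11 counts, or 2.61 CPM with an exact Poisson 95% interval of 1.30 to 4.68 CPM, which covers counting error only. Transcript lengths were not used here, so levels are compared between tumors and not between genes.

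The 9 genes did not separate by age. None of the 9 passed an adjusted p of 0.05 in edgeR's quasi-likelihood test, where 0 of all 14060 genes did (0%). At an unadjusted p under 0.05, 1 of 9 passed (Tek), against 8.56% of all genes, and the age groups did not overlap in 0 of 9, against 12.1% of all genes. DESeq2's Wald test also called 0 of 9, against 2.47% of the genes it tested. For 9 genes, counts of 0 or 1 lie near these shares and are no result about the members. The fitted log2 fold change of older over younger was above 0 for 7 members and below 0 for 2, with a median of 0.16 beside -0.003 over all genes. That median turned to -0.24 without tumor 167 and was 0.52 without tumor 158. The values that the members did share were those of single tumors: for 7 of 9, tumors 116 (older) and 167 (younger) were the lowest of the 6, an order chosen for description after the values were seen and held by 8.59% of all genes tested.

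The promoters of the VEGF receptors Kdr and Flt1, of the TIE receptor Tie1 and of Eng are shown because Kdr, Tie1 and Eng varied together across the tumors and Flt1 varied less with them. The sequences are from RefSeq (GRCr8) and run from 250 bases before to 50 bases after an annotated start, in the direction of the gene, and a promoter was in the table for 6 of the 10 listed genes. The regions are chr14:32571813-32572112 (plus strand) for Kdr, chr12:12333180-12333479 (plus) for Flt1, chr5:137304932-137305231 (minus) for Tie1 and chr3:36332029-36332328 (plus) for Eng. Capitals mark GGAA or its reverse complement TTCC, the core that ETS factors such as Erg and Fli1 bind.
Kdr: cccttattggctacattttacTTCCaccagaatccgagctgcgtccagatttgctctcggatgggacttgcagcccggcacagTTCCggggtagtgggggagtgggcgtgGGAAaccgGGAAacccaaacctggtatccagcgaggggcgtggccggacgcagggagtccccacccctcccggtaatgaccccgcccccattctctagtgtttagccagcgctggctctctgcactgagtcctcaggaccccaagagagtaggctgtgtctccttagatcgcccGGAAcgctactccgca
Flt1: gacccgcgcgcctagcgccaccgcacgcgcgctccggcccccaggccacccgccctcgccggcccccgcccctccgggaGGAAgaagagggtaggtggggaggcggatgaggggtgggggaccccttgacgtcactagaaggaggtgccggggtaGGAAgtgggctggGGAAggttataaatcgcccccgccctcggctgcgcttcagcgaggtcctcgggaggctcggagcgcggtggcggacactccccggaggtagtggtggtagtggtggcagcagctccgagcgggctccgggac
Tie1: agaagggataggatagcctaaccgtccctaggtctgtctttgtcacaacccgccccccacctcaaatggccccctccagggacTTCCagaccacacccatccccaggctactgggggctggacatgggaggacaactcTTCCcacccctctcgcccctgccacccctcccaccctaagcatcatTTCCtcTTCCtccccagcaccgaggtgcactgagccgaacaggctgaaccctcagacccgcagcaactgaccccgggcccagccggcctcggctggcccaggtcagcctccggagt
Eng: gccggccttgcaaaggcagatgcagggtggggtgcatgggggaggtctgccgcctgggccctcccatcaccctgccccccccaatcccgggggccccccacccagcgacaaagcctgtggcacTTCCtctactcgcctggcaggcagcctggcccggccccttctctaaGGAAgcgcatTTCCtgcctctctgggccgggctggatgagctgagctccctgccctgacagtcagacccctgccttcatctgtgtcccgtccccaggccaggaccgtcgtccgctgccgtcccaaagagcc
On both strands, GGAA stood 5 times in the Kdr promoter, 3 times in that of Flt1, 4 times in that of Tie1 and 3 times in that of Eng. It occurs in 95.79% of all 33469 promoters of this length, with a median of 3 matches, so its presence is no feature of these genes. The longer AGGAAG, which contains GGAA, stood in 4 of the 6 promoters found and in 34.51% of all. The GATA motif AGATAA stood in 0 of 6 and in 11.58% of all. The core of the hypoxia response element was searched as GCGTG, found in 2 of 6 (Kdr and Flt1) and 29.7% of all, and as ACGTG, found in 0 of 6 and 19.25% of all. A match is a run of letters in this window and not a measured binding site.

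The main VEGF receptor gene, Kdr, which encodes VEGFR2 and carries most of the VEGF signal in endothelial cells, was measured at 51.0, 55.9 and 18.2 CPM in older tumors 102, 107 and 116 and at 43.7, 54.3 and 14.5 CPM in younger tumors 157, 158 and 167. Tumors 116 and 167 stood below the other 4, and the age groups overlapped. The means were 41.7 ± 20.5 CPM in older and 37.5 ± 20.6 CPM in younger tumors (SD, n = 3 each), a log2 fold change of 0.15 (SE 0.56, edgeR adjusted p = 0.976). Flt1 encodes VEGFR1, which also binds VEGF and placental growth factor and is in part a decoy. Its levels were 62.6, 83.1 and 87.9 CPM in the older tumors and 117, 124 and 49.2 CPM in the younger ones. Unlike Kdr, it was highest among older tumors in tumor 116 and lowest there in tumor 102, and the groups overlapped. The log2 fold change was -0.31 (SE 0.37, edgeR adjusted p = 0.906).

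**Figure D1:**
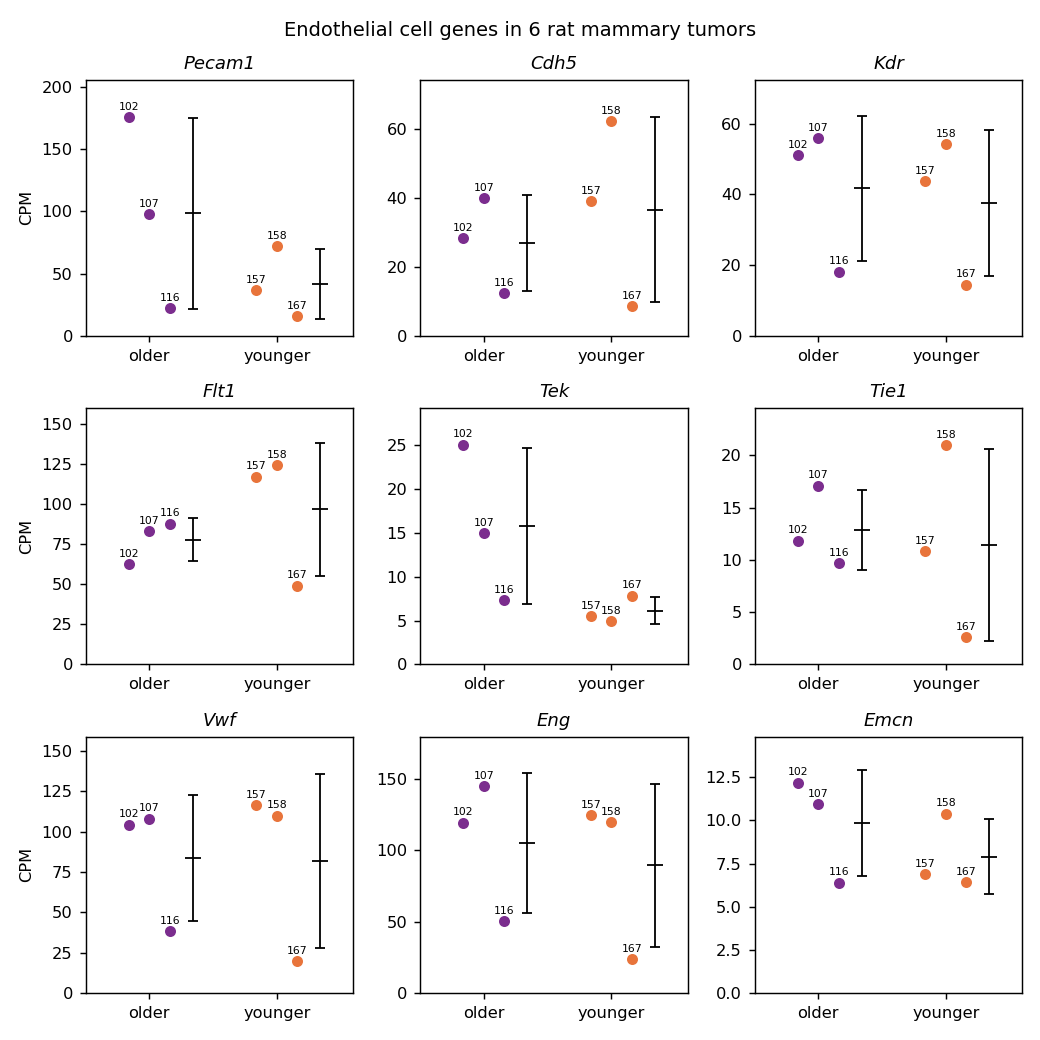
Level of each of the 9 genes in CPM (TMM-scaled) in each tumor, older and younger, with the group mean and SD. Tumors 116 and 167 are the lowest for 7 of the 9 genes, and the age groups overlap in all 9 panels.

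The ratio of Flt1 to Kdr counts was 1.23, 1.49 and 4.83 in the older tumors and 2.69, 2.29 and 3.39 in the younger ones. Tumor 116 had the highest ratio and tumors 102 and 107 the lowest, so the older tumors spanned the younger ones. The difference of the mean log2 ratios was -0.41 (older 1.05 ± 1.07, younger 1.46 ± 0.29), with a two-sided exact permutation p of 0.5, or 0.6 adjusted over the 2 ratios compared. Without tumor 116 the difference was -1.03, and without tumor 102 it was -0.04. The smallest p that 3 against 3 tumors allow is 0.1.

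Of the TIE receptors, Tek encodes TIE2, the receptor of the angiopoietins, and Tie1 encodes its partner, which has no angiopoietin of its own. Tek was at 25.0, 14.9 and 7.36 CPM in the older tumors and at 5.50, 4.93 and 7.84 CPM in the younger ones. Tumors 102 and 107 were above all others, while tumor 116 lay between the younger tumors. The means were 15.8 ± 8.87 and 6.09 ± 1.54 CPM, and the log2 fold change of 1.37 was the furthest from 0 of the 9 (SE 0.50, unadjusted p = 0.0276, edgeR adjusted p = 0.491). DESeq2 gave an adjusted p of 0.234 and limma-voom 0.763, and without tumor 102 the log2 fold change was 0.87. Age accounted for 55.2% of the variance of Tek across the 6 tumors, beside a median of 5.33% over the members and 15.0% over all genes. Tie1 was at 11.9, 17.1 and 9.68 CPM in the older and at 10.8, 21.0 and 2.61 CPM in the younger tumors. It was lowest in tumor 167 and highest in tumor 158, both younger, and the log2 fold change was 0.16 (SE 0.66, edgeR adjusted p = 0.976). The ratio of Tek to Tie1 counts was 2.11, 0.872 and 0.76 in the older and 0.508, 0.235 and 3 in the younger tumors. The highest and the lowest ratio were both in younger tumors, and the difference of the mean log2 ratios was 0.65 (exact permutation p = 0.6, adjusted 0.6), or 1.69 without tumor 167 and -0.14 without tumor 158.

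The junction gene Cdh5, which encodes VE-cadherin, was at 28.3, 39.9 and 12.4 CPM in the older tumors and at 39.0, 62.2 and 8.55 CPM in the younger ones. Tumor 158 was highest and tumor 167 lowest, so the younger tumors enclosed the older ones. The log2 fold change was -0.45 (SE 0.69, edgeR adjusted p = 0.932). Pecam1 encodes CD31, an adhesion protein of endothelial junctions that platelets and several leukocytes also carry. It was at 175.5, 97.8 and 22.1 CPM in the older and at 36.8, 71.9 and 16.2 CPM in the younger tumors, a 10.9-fold span, the widest of the 9. Tumor 102 was highest, and tumor 116 lay among the younger tumors. The log2 fold change was 1.24 (SE 0.76, edgeR adjusted p = 0.767), or 0.51 without tumor 102.

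Pecam1 and Tek are not restricted to endothelial cells, and the markers of other cells differed between the tumors as well. All 7 tested blood cell markers were higher in each older tumor than in any younger one, against 12.1% of all genes without overlap. In edgeR, 7 of 7 had an unadjusted p under 0.05, against 8.56% of all genes. The listed marker that failed the filter, Cd79a, went the other way, with 0, 3 and 4 counts in older and 7, 6 and 5 in younger tumors. Cd3e passed the filter with 10, 19 and 26 counts in older and 8, 8 and 7 in younger tumors. The sum over the list was 538 to 1420 CPM in older and 142 to 287 CPM in younger tumors. The blood cell sum was highest in tumor 107 and was higher in tumor 116 than in any younger tumor, whereas Pecam1 and Tek were highest in tumor 102 and lay among the younger tumors in tumor 116. Platelet markers were low: 1 of 8 passed the filter, Gp1bb and Ppbp were at 0 in all tumors, no row of that list exceeded 55 counts, and the sum was 7.74 to 20.7 CPM in older and 6.88 to 7.05 CPM in younger tumors. Adipocyte markers summed to 310 CPM in tumor 102, where Pecam1 and Tek were highest, and to between 29.0 and 66.9 CPM in the other 5 tumors. Most of the sum in tumor 102 was Fabp4 (129 CPM), which was also listed as a capillary gene, and Lipe (109 CPM). The part of blood cells and fat in the levels of Pecam1 and Tek was not tested.

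Vwf encodes von Willebrand factor, the clotting protein that endothelial cells store in Weibel-Palade bodies and that megakaryocytes also make. It was at 104, 108 and 38.5 CPM in the older and at 116, 110 and 19.7 CPM in the younger tumors. Here 4 tumors lay close together and tumors 116 and 167 stood below them, 1 in each age group, and the log2 fold change was 0.03 (SE 0.65, edgeR adjusted p = 0.995). Eng encodes endoglin, a co-receptor for TGF-beta and BMP ligands. It was at 119.5, 145 and 50.5 CPM in the older and at 125, 119.8 and 23.5 CPM in the younger tumors, the same order of low tumors, with a log2 fold change of 0.23 (SE 0.63, edgeR adjusted p = 0.962). Emcn encodes endomucin, a sialomucin of capillaries and veins. It was at 12.2, 10.97 and 6.39 CPM in the older and at 6.88, 10.4 and 6.41 CPM in the younger tumors, the narrowest span of the 9 at 1.91-fold, and the log2 fold change was 0.31 (SE 0.41, edgeR adjusted p = 0.917).

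**Figure D2:**
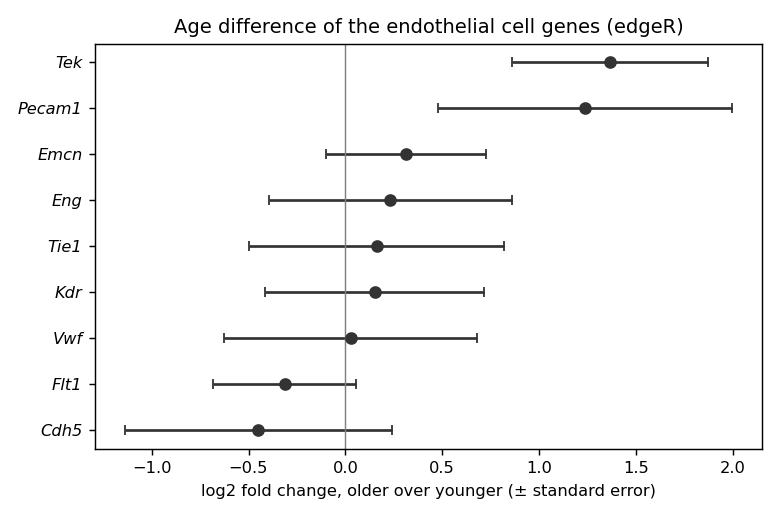
Log2 fold change of older over younger tumors for each of the 9 genes with its standard error, from edgeR's quasi-likelihood fit. The values run from -0.45 for Cdh5 to 1.37 for Tek, and none passes an adjusted p of 0.05.

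Averaged over the 9 genes, log2 CPM was 5.50, 5.52 and 4.32 in tumors 102, 107 and 116 and 5.07, 5.43 and 3.68 in tumors 157, 158 and 167. The mean was 5.11 ± 0.69 in older and 4.72 ± 0.93 in younger tumors (SD, n = 3 each), and the groups overlapped. Across the 6 tumors, the median SD of log2 CPM was 0.99 over the members and 0.45 over all genes. A separate list of other pan-endothelial genes gave mean log2 CPM of 3.74, 3.65 and 2.40 in the older and 3.10, 3.40 and 2.44 in the younger tumors. In that list too, tumors 116 and 167 had the lowest means, and they were the lowest pair for 17 of its 28 tested genes.

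Across the 6 tumors, the 36 pairs of members had a median Pearson r of 0.71 on log2 CPM and a median Spearman rho of 0.6, with r from -0.57 to 0.99 and 2 pairs below 0. No pair had an adjusted p under 0.05 in exact permutation tests adjusted over the 36, where 14 had an unadjusted p under 0.05. All pairs share the same 6 libraries and their scaling. With the age means removed from each gene the median r was 0.75. After the 2 tumors farthest from the median of the first gene of a pair were left out, the median r was 0.17 and 14 pairs were below 0. Leaving out the farthest tumors narrows the range of that gene, so a lower r cannot show what the relation rested on.

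**Figure D3:**
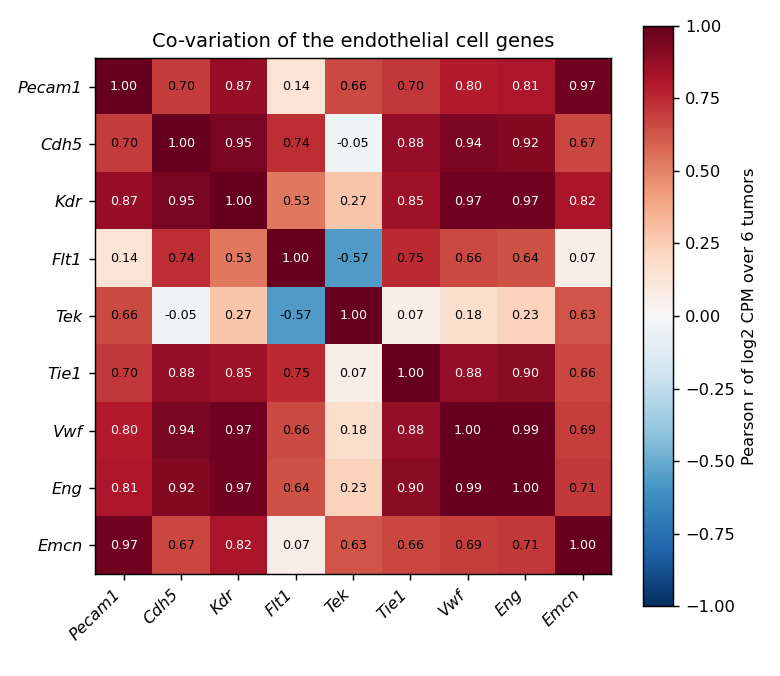
Pearson r between log2 CPM of each pair of the 9 genes over 6 tumors, shown by color. Flt1 and Tek have the lowest mean r with the other members, 0.37 and 0.18.

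Flt1 and Tek were set apart after the values were seen, for their low r, so a higher r among the other 7 members was built in. The 21 pairs of these 7 had r from 0.66 to 0.99 with a median of 0.87. Without the 2 farthest tumors the median was 0.70, and 4 of the 21 were below 0. The split was not sharp. Flt1 had r = 0.75 with Tie1 and 0.74 with Cdh5, above the lowest of the 21, but 0.14 with Pecam1 and 0.07 with Emcn. Vwf and Eng had r = 0.99 (exact permutation p = 0.0139, adjusted 0.055) and rho = 0.83 (exact p = 0.0583, adjusted 0.21), and r was 0.00064 without tumors 116 and 167. Kdr and Tie1 had r = 0.85 (exact permutation p = 0.00278, adjusted 0.05) and rho = 0.94 (exact p = 0.0167, adjusted 0.2). That relation held at r = 0.81 without tumors 116 and 167. Pecam1 and Emcn had r = 0.97 (exact permutation p = 0.00278, adjusted 0.05) and rho = 0.94 (exact p = 0.0167, adjusted 0.2), and r = 0.97 without tumors 102 and 167. Flt1 and Tek went apart, with r = -0.57 (exact permutation p = 0.225, adjusted 0.293) and rho = -0.83 (exact p = 0.0583, adjusted 0.21), and r = -0.93 without tumors 158 and 167.

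Set against the mean of the other members in the same tumor, the log2 level of Tek was -0.94, -1.78 and -1.53 in the older tumors and -2.82, -3.38 and -0.71 in the younger ones. Tumor 167, where the other members were lowest, had the highest relative level of Tek. A gene that follows the other members weakly comes out high by this measure where their mean is low. That order is therefore partly built in. Flt1 stood above the mean of the others by 0.53, 0.97 and 2.41 in the older and by 2.04, 1.73 and 2.20 in the younger tumors. Its relative level was highest in tumors 116 and 167, the reverse of the absolute order of Kdr, Vwf and Eng. Those genes are part of the subtracted mean, so this reversal is partly built in as well. Between the age groups the relative level differed by 0.89 for Tek, 0.73 for Pecam1, -0.68 for Flt1 and -0.66 for Cdh5, and the groups overlapped for all 9 genes. Single tumors moved these differences: leaving out each tumor gave 0.35 (without 158) to 1.69 (without 167) for Tek, 0.24 (without 102) to 1.24 (without 116) for Pecam1, -1.23 (without 116) to -0.29 (without 102) for Flt1 and -0.99 (without 167) to -0.40 (without 158) for Cdh5.

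**Figure D4:**
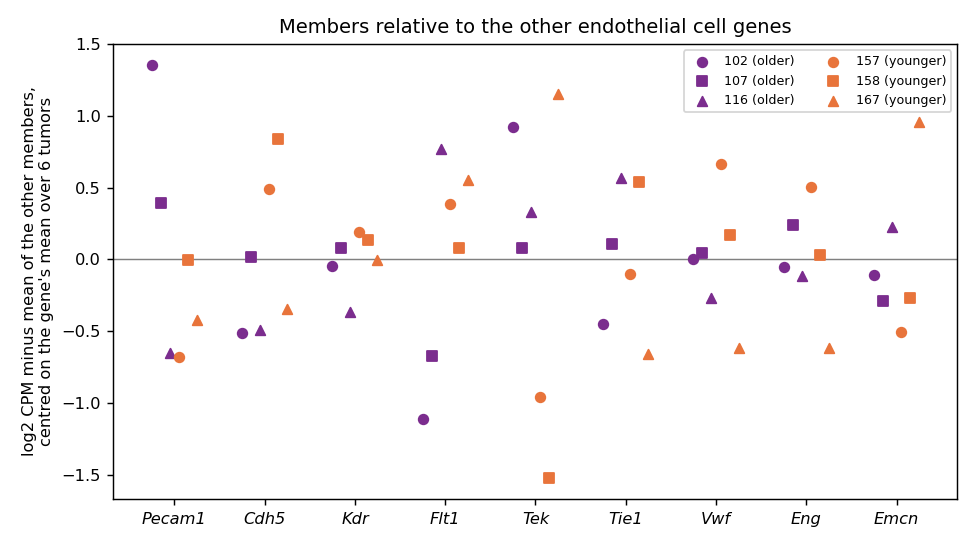
Level of each gene relative to the mean of the other 8 in the same tumor, in log2 units and centered on the gene's mean over the 6 tumors. Tek runs from -1.52 in tumor 158 to 1.15 in tumor 167, and Flt1 from -1.11 in tumor 102 to 0.77 in tumor 116.

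None of the ligands of these receptors passed edgeR's threshold, which 0 of all 14060 genes passed. Of the 6 tested, Vegfa, Pgf and Angpt1 did not overlap between the age groups, against 12.1% of all genes. DESeq2 called Vegfa and Angpt1, against 2.47% of the genes it tested. Vegfa, the main ligand of Kdr and Flt1, was at 178, 138 and 135 CPM in the older and at 494, 384 and 253 CPM in the younger tumors, highest in the 3 younger tumors. The log2 fold change was -1.32 (SE 0.31, edgeR adjusted p = 0.308), and DESeq2 gave an adjusted p of 0.0119. Pgf, which encodes placental growth factor and binds Flt1, was at 2.63, 12.3 and 18.8 CPM in the older and at 56.8, 40.3 and 35.4 CPM in the younger tumors (log2 fold change -1.95, SE 0.59, edgeR adjusted p = 0.372, DESeq2 adjusted p = 0.0516). Angpt1, the agonist of TIE2, was at 128, 71.1 and 52.1 CPM in the older and at 11.7, 10.4 and 17.3 CPM in the younger tumors, again without overlap. Its log2 fold change was 2.67 (SE 0.41, edgeR adjusted p = 0.175, DESeq2 adjusted p = 1.83e-06). Angpt2, which is released by endothelial cells and opposes Angpt1 in many settings, was at 15.8, 21.3 and 14.3 CPM in the older and at 35.1, 37.7 and 18.8 CPM in the younger tumors. Those groups overlapped, and the log2 fold change was -0.83 (SE 0.35, edgeR adjusted p = 0.572). Of the 6 ligands tested, 1 had a fold change above 0 and 5 below. The 10 hypoxia genes, which include targets that low oxygen induces, all had a fold change below 0 (median -1.20), 4 of them called by DESeq2, against 2.47% of all genes it tested, and their part in the level of Vegfa was not tested.

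**Figure D5:**
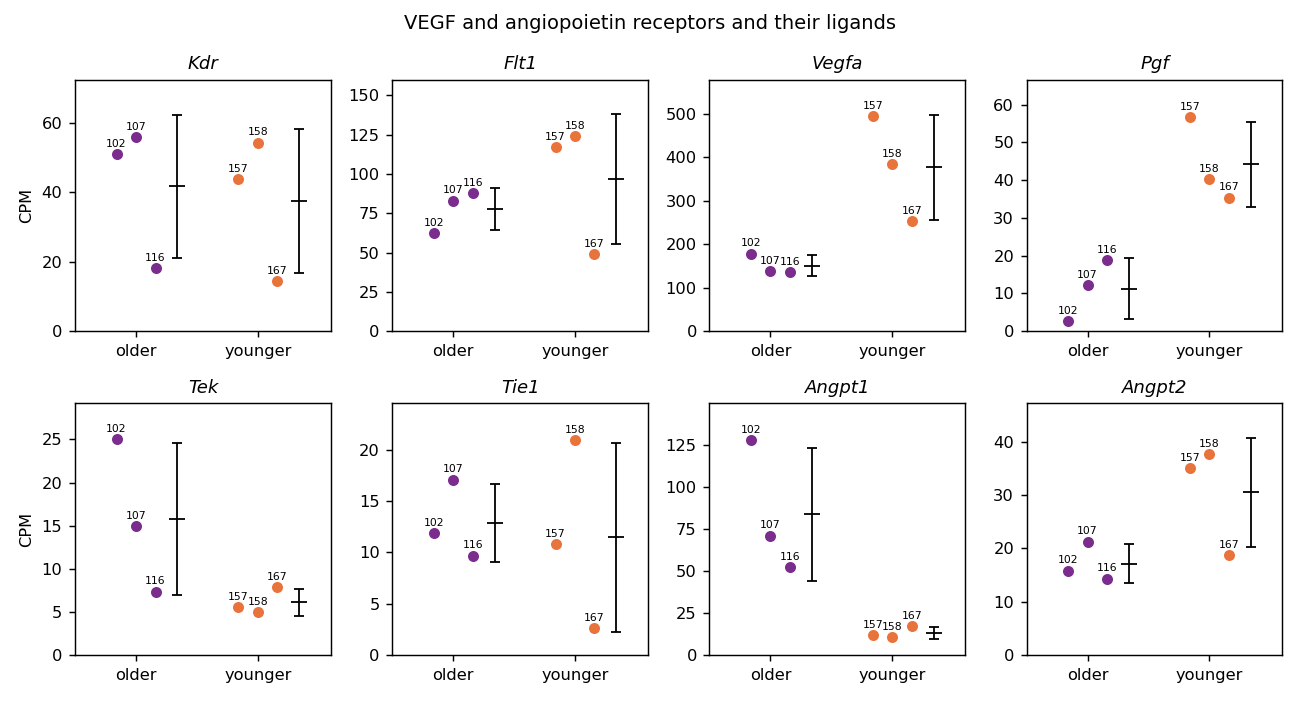
CPM of the receptors Kdr, Flt1, Tek and Tie1 and of the ligands Vegfa, Pgf, Angpt1 and Angpt2 in each tumor. Vegfa, Pgf and Angpt1 do not overlap between the age groups, whereas all 4 receptors do. Of all genes tested, 12.1% do not overlap.

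Other endothelial genes, from lists chosen with earlier results known, gave no edgeR call, where 0 of all 14060 genes gave one. Of 28 other pan-endothelial genes tested, 20 had a fold change above 0 and 8 below, with a median of 0.39, and 2 had an unadjusted p under 0.05 (8.56% of all genes did), Adgrl4 (log2 fold change 2.10, SE 0.75, edgeR adjusted p = 0.470) and Fli1 (1.40, SE 0.56, edgeR adjusted p = 0.534). Adgrl4 was at 70.5, 19.1 and 9.29 CPM in the older and at 7.57, 10.9 and 4.28 CPM in the younger tumors. Fli1 was at 23.1, 23.2 and 6.20 CPM in the older and at 4.82, 8.98 and 5.94 CPM in the younger tumors. For both genes tumor 116 lay among the younger tumors. Fli1 encodes an ETS factor, and its partner Erg had 0.43 (edgeR adjusted p = 0.930). The phosphatase gene Ptprb, whose product acts on TIE2, had 0.85 (edgeR adjusted p = 0.790). Acvrl1, the partner receptor of endoglin, had 0.50 (edgeR adjusted p = 0.916), and -0.005 in limma-voom. It was at 21.4, 6.58 and 3.68 CPM in the older and at 7.40, 9.16 and 5.46 CPM in the younger tumors, so only tumor 102 was above all younger ones. Of the tested genes of that pathway, 8 of 12 were above 0. Of 11 genes of tip cells, the leading cells of a sprout, 9 had a fold change below 0 (median -0.65) and 3 an unadjusted p under 0.05, against 8.56% of all genes. These were Esm1 (-2.34, SE 0.83, edgeR adjusted p = 0.465), Kcne3 (-1.46, SE 0.45, edgeR adjusted p = 0.386) and Angpt2. Of the VEGF co-receptor list, Flt4 had -1.27 (SE 0.51, edgeR adjusted p = 0.551) and Nrp1 -0.38 (edgeR adjusted p = 0.888). DESeq2 called 0 genes of the tip cell list and 0 of the other pan-endothelial list, against 2.47% of the genes it tested. With 11 and 28 genes tested, counts of 0 lie near that share.

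Markers of cells that lie next to vessels were summed as well, and a few abundant genes carried the sums. Pericyte and mural cell markers summed to 820, 2736 and 606 CPM in the older and 2262, 1687 and 1642 CPM in the younger tumors. Without the contractile genes Acta2 and Myh11, which smooth muscle and myoepithelial cells also express, the sums were 466, 798 and 214 CPM in the older and 596, 452 and 335 CPM in the younger tumors. On that count tumors 116 and 167 were the lowest, as they were for 7 of the 9 members, and they were the lowest pair for 5 of the 11 tested genes of the list. Lymphatic markers summed to 72.1, 455 and 252 CPM in the older and 646, 451 and 362 CPM in the younger tumors, most of it Reln. Without Reln the sums were 42.2, 112 and 29.0 CPM in the older and 50.2, 31.0 and 21.4 CPM in the younger tumors, again lowest in tumors 116 and 167, although none (0) of the 4 tested genes had these 2 tumors as its lowest pair. The genes left out were chosen after the values were seen, and the part of these cells in the members' levels was not tested.

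The genes whose levels followed the members most closely were found among 11823 genes with a mean of at least 5 CPM, by their mean r with the 9 members over the 6 tumors. The 10 highest were Zmiz1 (0.81), Aff1, Agap1, Crybg2, Clcn5, Tmem88, Gtpbp1, Esam, Tp53bp2 and Tfeb (0.795). Esam encodes an adhesion protein of endothelial junctions, and the others were on none of the gene lists used here. The mean r of a member with the other 8 ran from 0.18 for Tek to 0.78 for Kdr. Genes outside the endothelial lists, picked as the highest of 11823, thus followed the members as closely as the members followed each other.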

How the data were processed

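RNA of 6 flash-frozen mammary tumors, 3 from older and 3 from younger rats, was sequenced after depletion of ribosomal RNA according to the study's methods, whereas the labels name polyA RNA. The submitters' processing notes name FastQC 0.11.7, Trimmomatic 0.38, STAR 2.7.9a, Picard 2.18.12, HTSeq 0.13.5 and the build mRatBN7.2. Picard marked duplicates before HTSeq counted the reads, and whether marked reads were counted, the annotation and the strand setting are not given in the sources used here. The authors deposited raw read counts per gene and tumor, without normalization, and 0 columns were left unused. Because the strand setting is not given, it is not known whether reads of overlapping genes were told apart by strand.

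Rows were kept by filterByExpr (14060 of 30562, of which 903 carry no gene name), scaled by TMM, and compared with edgeR 4.0.16's quasi-likelihood test in R 4.3.3, without covariates, with Benjamini-Hochberg adjustment over all rows and a threshold of 0.05. Positive log2 fold changes mean higher in older tumors. The F statistic and the fold change of each gene gave its standard error. A prior count of 2 entered log2 CPM, and ratios were taken of the counts as deposited, with 0.5 added to each count as an alternative. Correlations and ratios were tested by exact two-sided permutation, correlations over all 720 orders of the 6 tumors. With Cldn5 not analysed, 36 pairs were compared. The statistics were tested on simulated data.

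The members and gene lists, 200 genes besides the members, were chosen with earlier results of these data known. Genes were named by a rule that took all members, the main ligands, partner receptors and ETS and SOX factors, up to 4 genes of each list and the 10 genes most like the members. Alternatives were DESeq2 1.42.0, limma-voom (limma 3.58.1), library totals, other filters and prior counts, and leaving out each tumor. Promoters came from RefSeq (GRCr8), from which no gene coordinates were joined to the counts.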

Additional observations from a re-analysis of the deposited data

How the results depend on the processing

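With 3 tumors a group and 3508571 to 6525830 counts each, no member was called under any alternative run. No paired analysis was possible because the tumor numbers are not shared between the age groups. DESeq2's Wald test called 13 of the 200 other list genes, of which 165 passed the filter, where edgeR called 0, and over all genes it called 2.47%. The log2 fold change of Vwf, 0.03, turned to -0.0489 with library totals and to -0.00589 when all genes with a count were kept. The median r between members, 0.71, was 0.61 with library totals and 0.6 as Spearman's rho. Leaving out each tumor gave log2 fold changes of -0.92 to 0.17 for Cdh5, -0.22 to 0.56 for Eng, -0.24 to 0.52 for Kdr, -0.30 to 0.93 for Tie1 and -0.44 to 0.37 for Vwf, so their direction rested on single tumors. It gave a median r of 0.594 to 0.843 and a difference of the log2 ratio of Tek to Tie1 of -0.14 (without tumor 158) to 1.69 (without tumor 167). Tek (0.87 to 1.71), Pecam1 (0.51 to 1.89), Emcn (0.12 to 0.56) and Flt1 (-0.63 to -0.09) kept their direction. The median over the members ran from -0.24 to 0.52. The causes were not tested.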

Other observations

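Genes of venous, capillary and activated endothelium were not part of the comparisons above. The median log2 fold change was 0.14 over 5 tested venous genes and 0.16 over 6 capillary genes. It was 0.66 over 5 leukocyte adhesion and activation genes. In each list DESeq2 called 1 gene and 1 did not overlap, against 2.47% and 12.1% of all genes. These were Vcam1, which is on 2 of the lists, and Timp4, so they do not stand for their lists. Vcam1, an adhesion protein for leukocytes that fibroblasts and other cells also make, was at 78.7, 11.6 and 28.8 CPM in older tumors 102, 107 and 116 and at 4.99, 3.35 and 1.19 CPM in younger tumors 157, 158 and 167, without overlap (log2 fold change 3.60, SE 0.80, edgeR adjusted p = 0.267, DESeq2 adjusted p = 0.000324). Timp4, which is also made in fat, was at 51.0, 36.0 and 5.03 CPM in the older and at 1.38, 0.705 and 1.66 CPM in the younger tumors (log2 fold change 4.61, SE 0.88, edgeR adjusted p = 0.228, DESeq2 adjusted p = 7.64e-06). Counts were few in younger tumors 157, 158 and 167, at 8, 4 and 7 for Timp4 and 29, 19 and 5 for Vcam1. For these genes limma-voom gave adjusted p of 0.609 and 0.533. Selp and Ackr1, markers of venules, were too low for the test, and the highest count of Selp was 35, in tumor 102. The transcription factor gene Sox17 was at 28.7, 3.73 and 0.968 CPM in the older and at 0.516, 0.705 and 0.238 CPM in the younger tumors, and was not tested for the same reason.

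Of the Notch pathway genes in the arterial list, Notch4 and Jag1 lay in opposite directions. Notch4 was at 245, 213 and 122.4 CPM in the older and at 121.8, 48.3 and 19.5 CPM in the younger tumors (log2 fold change 1.61, SE 0.62, edgeR adjusted p = 0.511, DESeq2 adjusted p = 0.194). Jag1, a Notch ligand that epithelial cells also make, was at 41.2, 61.4 and 69.3 CPM in the older and at 341, 114 and 185 CPM in the younger tumors (log2 fold change -1.89, SE 0.43, edgeR adjusted p = 0.288, DESeq2 adjusted p = 0.00521). Neither passed edgeR's threshold. The other Notch pathway genes of that list had log2 fold changes of -0.65 (Dll4), 0.04 (Hey1) and -1.25 (Hey2), with edgeR adjusted p of 0.908, 0.994 and 0.804. Which cells the RNA came from was not tested.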
